A study of Homo sapiens with 12 samples.

Results

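The laminin and integrin genes were followed in HK-2 cells treated with 3 nephrotoxic drugs. Members were taken from the deposited count table by gene symbol and class alone: protein-coding genes named LAMA, LAMB or LAMC with a chain number, and protein-coding genes named ITGA or ITGB with a subunit number or letter. The rule found 38 genes of the 58735 in the table, 12 laminin chains and 26 integrin subunits, of which 18 were α and 8 were β subunits. HK-2 is an established, immortalised cell line derived from human proximal tubule epithelium. The 12 samples formed 4 groups of 3, namely a control group given water (H2O in the labels), cells treated with iohexol at 75 mg of iodine per mL, cells treated with cisplatin at 5 μM, and cells treated with vancomycin at 4 mM, each drug for 48 h. Iohexol is an iodinated X-ray contrast agent, cisplatin a platinum drug that crosslinks DNA, and vancomycin a glycopeptide antibiotic. No time was given for the controls and each drug was used at 1 dose, and every group came from the 1 cell line, so the groups describe that line at that dose and time.

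Laminins are secreted as trimers of 1 α, 1 β and 1 γ chain and form the sheet of the basement membrane to which epithelial cells are attached. Integrins are pairs of 1 α and 1 β subunit that span the plasma membrane, bind laminins, collagens or proteins with an RGD motif such as fibronectin and vitronectin, and connect them to actin or, in hemidesmosomes, to keratin. In the kidney tubule the laminin chains of the basement membrane change during development, and α3β1 and α6 integrins are the main laminin receptors of tubular cells. A single α or β gene reports only on the RNA of 1 partner, and RNA levels give no amount of assembled trimer or receptor.

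The 12 libraries held 14057282 to 18177109 counted reads, and each vancomycin library (16738188 or more) was deeper than every library of the other groups (16589507 or fewer). A total of 3 counts in a sample, taken as the floor of detection, corresponded to 0.177 to 0.218 CPM (reads of a gene per 1000000 counted reads, on library sizes scaled with TMM factors of 0.885 to 1.13). The share of all counts taken by the 38 genes was 0.955 to 0.997% in the controls. It was 0.741 to 0.787% in the iohexol samples, 0.560 to 0.577% in the cisplatin samples and 0.713 to 0.797% in the vancomycin samples, so that no treated library reached the lowest control library. Of 7 epithelial markers, 6 were above 1 CPM in every group, with KRT8 at a mean of 494 to 844 CPM, whereas CDH1 stayed at or below a group mean of 0.401 CPM. Most markers that define the proximal tubule were at or near 0, among them LRP2, SLC22A6, SLC22A8 and HNF4A, while GGT1 was at group means of 147 to 363 CPM and GATM at 3.07 to 6.07 CPM. Markers of other cell types were mostly low for leukocytes (PTPRC at or below a group mean of 0.133 CPM, CD3E at or near 0) and platelets (PF4 at 0 in every sample). The highest leukocyte marker was CD14, at group means of 0.790 to 2.84 CPM. The highest platelet marker was GP1BA, at group means of 0.910 to 2.35 CPM. The summed level of 7 fibroblast markers was 115 to 129 CPM in the controls, 106 to 116 in the iohexol, 105 to 109 in the cisplatin and 241 to 277 in the vancomycin samples, where LUM had a mean of 182 CPM, while COL1A2, COL3A1 and PDGFRA were near 0 in all groups. Of the 7, 3 had a mean above 1 CPM in the controls and with iohexol, and 4 with cisplatin and with vancomycin. Endothelial markers summed to 1.44 to 1.89 CPM in the controls, 4.01 to 4.28 in the iohexol, 1.94 to 1.97 in the cisplatin and 0 to 1.25 in the vancomycin samples. The part of such markers in the results was not tested. Nothing in the labels said that the 3 samples of a group came from separate cultures, so the p-values measure the spread between these samples, which may be technical.

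Of the 38 genes, 28 passed the filter on low counts in all 3 comparisons with the control, and 29 were tested with each drug. An edgeR quasi-likelihood test was run for each drug against the controls across all genes, with p-values adjusted over all genes tested by the Benjamini-Hochberg method. A gene was called higher or lower at an adjusted p under 0.05, and a called gene with an absolute log2 fold change above 1 was counted as a differentially expressed gene (DEG). All fold changes are given as log2(drug/control) with ± their standard error unless another pair is named. The 3 comparisons share the same 3 control samples and are therefore not independent of each other.

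Cisplatin gave the most genes called lower. With cisplatin, 22 of the 29 tested members were called (75.9%, against 59.8% of all genes tested), 5 higher (29.2% of all genes were) and 17 lower (30.6% of all), and 12 were DEGs (41.4%, against 16.3% of all genes). Of the DEGs, 10 fell, where 8.72% of all genes were DEGs that fell (among them LAMA3, LAMA5, ITGA1, ITGA3, ITGA4, ITGB3, ITGB4, ITGB6 and ITGB8) and 2 rose, where 7.62% of all genes did (ITGB2 and ITGAD). These counts include ITGAD, which passed the filter in this comparison only, through the cisplatin samples in which it was high. The ITGAD call is therefore no sign of a change on its own. The median log2 fold change of the tested members was -0.64, beside 0.0074 over all genes. With the counts scaled by library size only, which moved the median of all genes to 0.23, the split was 10 higher and 16 lower. The shares of all genes called higher and lower with that scaling were not computed. All 7 tested β subunits were called with cisplatin, 6 lower and ITGB2 higher.

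Vancomycin moved the members in both directions, as it did the genes tested in general. It left 20 of 29 called (69.0%, against 57.9% of all genes), 10 higher (29% of all genes) and 10 lower (28.8% of all), with 9 DEGs (31%, against 18.5%). The 4 DEGs that rose were the α subunit genes ITGA1, ITGA2, ITGA5 and ITGAX (10.8% of all genes rose as DEGs), and the 5 that fell included ITGA6, ITGB4, ITGB6 and ITGB8 (7.65% of all). The median log2 fold change of the members was 0.044, beside -0.0084 over all genes. Iohexol gave the fewest calls, 12 of 29 (41.4%, against 21.0% of all genes), 5 higher (11.2% of all genes) and 7 lower (9.77% of all). With iohexol 1 member was a DEG (3.45%, against 5.28% of all genes, of which 4.02% rose and 1.25% fell), and the median log2 fold change was -0.050, beside 0.012 over all genes. The number called higher with iohexol was 3 rather than 5 without iohexol replicate 2, and the number called lower was 11 rather than 7 in 1 fit of all 4 groups. In bulk RNA, fewer cells with a transcript and less of it per cell cannot be told apart, which holds for each result below.

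**Figure D1:**
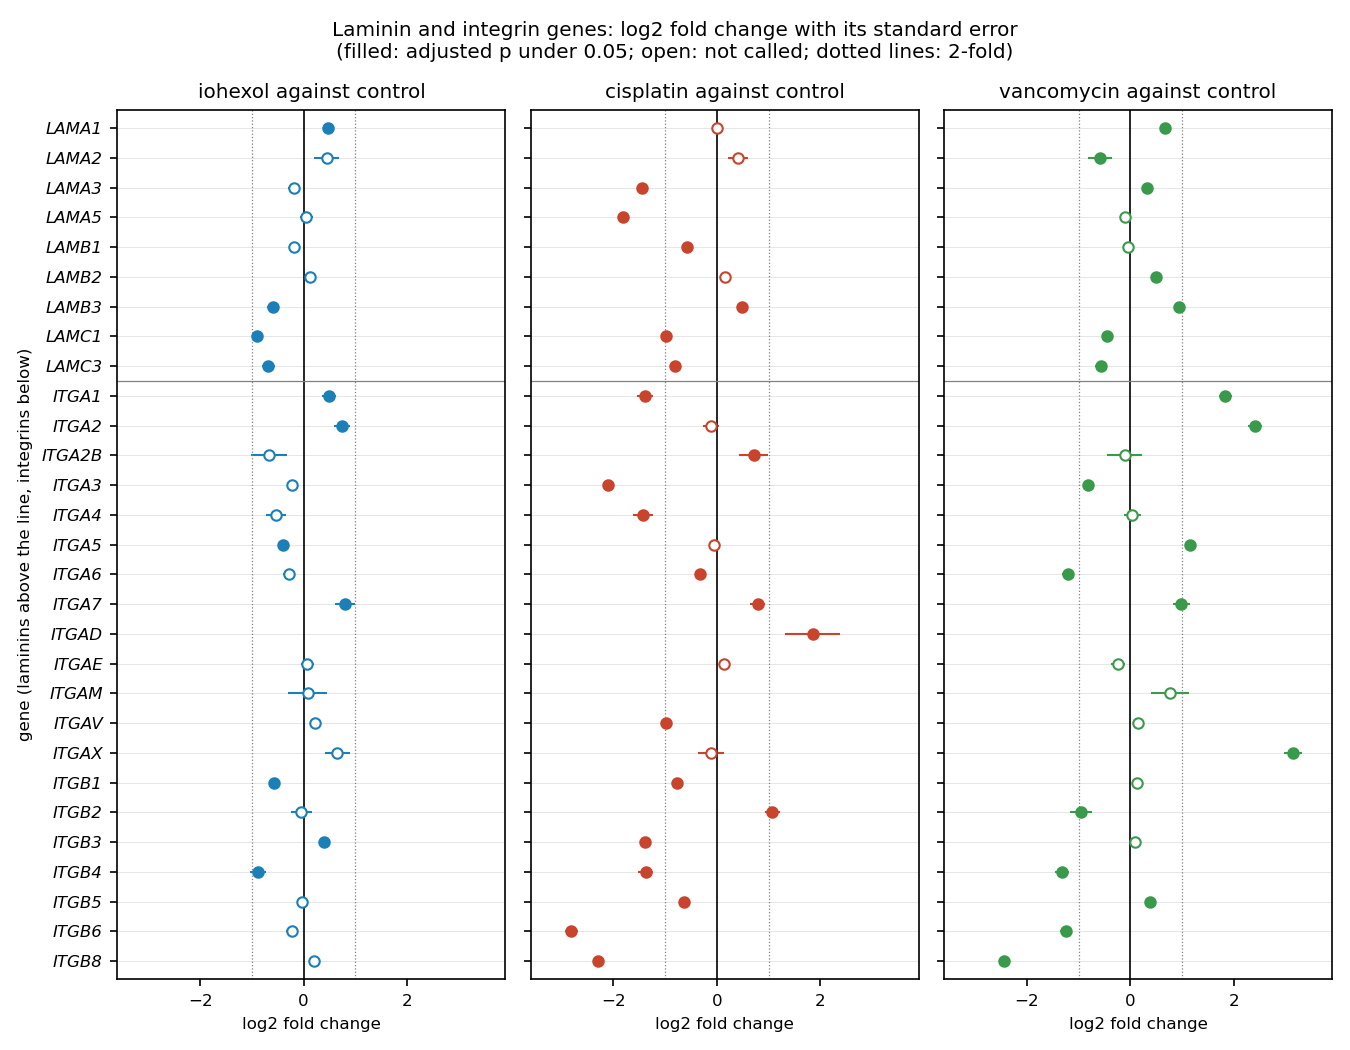
Log2 fold change against the controls (x axis) of the laminin and integrin genes that passed the filter, 1 of them not plotted (y axis), 1 panel for each drug, with bars of 1 standard error; filled points have an adjusted p under 0.05 and dotted lines mark a 2-fold change. Most filled points lie left of 0 in the cisplatin panel, while the vancomycin panel is spread to both sides, with ITGAX farthest right at 3.14 and ITGB8 farthest left at -2.43.

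The γ chain genes LAMC1 and LAMC3 were lower in all treated groups. LAMC1 encodes the γ1 chain of most laminins, and its level was 1319, 1329 and 1339 CPM in the controls, 652, 705 and 754 with iohexol, 694, 661 and 649 with cisplatin, and 1083, 883 and 1032 with vancomycin. The treated samples all lay below the controls, with the vancomycin samples nearest to them. LAMC1 changed by -0.90 ± 0.078 (adjusted p = 9.83e-06) with iohexol, -0.99 ± 0.050 (adjusted p = 2.1e-11) with cisplatin and -0.45 ± 0.088 (adjusted p = 0.000118) with vancomycin. LAMC3, the γ3 chain gene on chromosome 9, was at 146 ± 21.8 CPM in the controls (mean ± SD, n = 3) and changed by -0.68 ± 0.12, -0.82 ± 0.086 and -0.57 ± 0.10 with iohexol, cisplatin and vancomycin, with adjusted p-values of 0.0024, 3.04e-07 and 3.27e-05. No treated sample of LAMC3 reached its lowest control sample.

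Of the β chain genes, LAMB3 moved in opposite directions with the drugs. The level of LAMB3, whose β3 chain assembles with the LAMA3 product in the laminin that anchors epithelial hemidesmosomes, was 136, 173 and 173 CPM in the controls, 106, 115 and 93.7 with iohexol, 226, 219.7 and 229 with cisplatin, and 314, 306 and 336 with vancomycin. All 3 iohexol samples were below the controls, and all cisplatin and vancomycin samples were above them, with the vancomycin samples the highest. The log2 fold change was -0.60 ± 0.11 (adjusted p = 0.00324) with iohexol, 0.48 ± 0.077 (adjusted p = 3.51e-05) with cisplatin and 0.95 ± 0.096 (adjusted p = 9.82e-09) with vancomycin.

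LAMB1 encodes the widely expressed β1 chain and was the most abundant β chain gene per length, at 92.0 ± 0.270 CPM per kb of exon in the controls (mean ± SD, as for all levels given with ±). Its level was 751, 747 and 749 CPM in the controls, 636, 655 and 657 with iohexol, 509, 491 and 499.8 with cisplatin, and 780.2, 711 and 762 with vancomycin. The cisplatin samples lay below the controls, and LAMB1 changed by -0.58 ± 0.051 (adjusted p = 2.55e-08) there. The iohexol samples also lay below the controls without passing the threshold (-0.19 ± 0.072, adjusted p = 0.0887), and the vancomycin samples overlapped them (-0.038 ± 0.082, adjusted p = 0.715). LAMB1 overlaps DLD, which held a mean of 1360.2 counts beside 10260.2 for LAMB1, and the part of DLD was not tested. LAMB2, whose β2 chain replaces β1 in the mature glomerular and synaptic basement membrane, rose with vancomycin from 149 ± 18.4 to 218 ± 12.3 CPM (0.51 ± 0.095, adjusted p = 7.25e-05), with values of 0.13 ± 0.12 with iohexol and 0.16 ± 0.074 with cisplatin that were not called.

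Among the α chain genes, LAMA5 and LAMA3 fell with cisplatin. LAMA5 encodes the α5 chain of the laminins of mature tubular basement membrane and was the main α chain gene here, at 46.4 ± 5.83 CPM per kb in the controls. The level of LAMA5 was 575, 675 and 741 CPM in the controls, 665, 789.6 and 575 with iohexol, 191, 187 and 189.7 with cisplatin, and 686, 548 and 682 with vancomycin. The cisplatin samples were all far below the controls and close together, whereas the iohexol and vancomycin samples overlapped the controls. The change was -1.81 ± 0.074 (adjusted p = 1.34e-12) with cisplatin, 0.048 ± 0.12 (adjusted p = 0.818) with iohexol and -0.095 ± 0.10 (adjusted p = 0.437) with vancomycin. LAMA5 overlaps ADRM1, which held a mean of 1806.7 counts beside 8340.5 for LAMA5. The part of ADRM1 in the LAMA5 values was not tested.

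LAMA3 carries the α3 chain that assembles with the LAMB3 product. Its level was 139.7, 132 and 152 CPM in the controls, 109, 138 and 119 with iohexol, 52.8, 51.1 and 51.4 with cisplatin, and 197, 153 and 195 with vancomycin. Cisplatin samples lay below and vancomycin samples above the controls, narrowly so for 1 of them, and the iohexol samples overlapped the controls. LAMA3 changed by -1.45 ± 0.070 (adjusted p = 1.18e-11) with cisplatin, 0.32 ± 0.10 (adjusted p = 0.00813) with vancomycin and -0.19 ± 0.11 (adjusted p = 0.223) with iohexol. Without control replicate 2 the vancomycin call was lost (0.27, adjusted p = 0.0564).

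LAMA1 and LAMA2 were not called with cisplatin. LAMA1, the embryonic-type α1 chain, rose from 97.4 ± 2.60 CPM in the controls to 134 ± 10.1 with iohexol (0.48 ± 0.089, adjusted p = 0.00256) and 161 ± 18.2 with vancomycin (0.68 ± 0.095, adjusted p = 1.61e-06), and stayed at 97.6 ± 7.26 with cisplatin (0.0019 ± 0.069, adjusted p = 0.982). LAMA2, the α2 chain of muscle and nerve, was at 3.77 to 5.13 CPM in the controls, 4.41 to 8.02 in the iohexol, 4.31 to 6.91 in the cisplatin and 2.53 to 3.24 in the vancomycin samples, where it was called lower (-0.59 ± 0.24, adjusted p = 0.0374). That call of LAMA2 was lost without control replicate 2 or 3 or vancomycin replicate 1 or 3, with adjusted p-values up to 0.157, and with DESeq2 (0.0613), with every gene of at least 1 count (0.0514) and in 1 fit of all groups (0.0713). LAMA4 had 1 to 13 counts in each sample and LAMB4 0 to 7, so neither was tested.

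**Figure D2:**
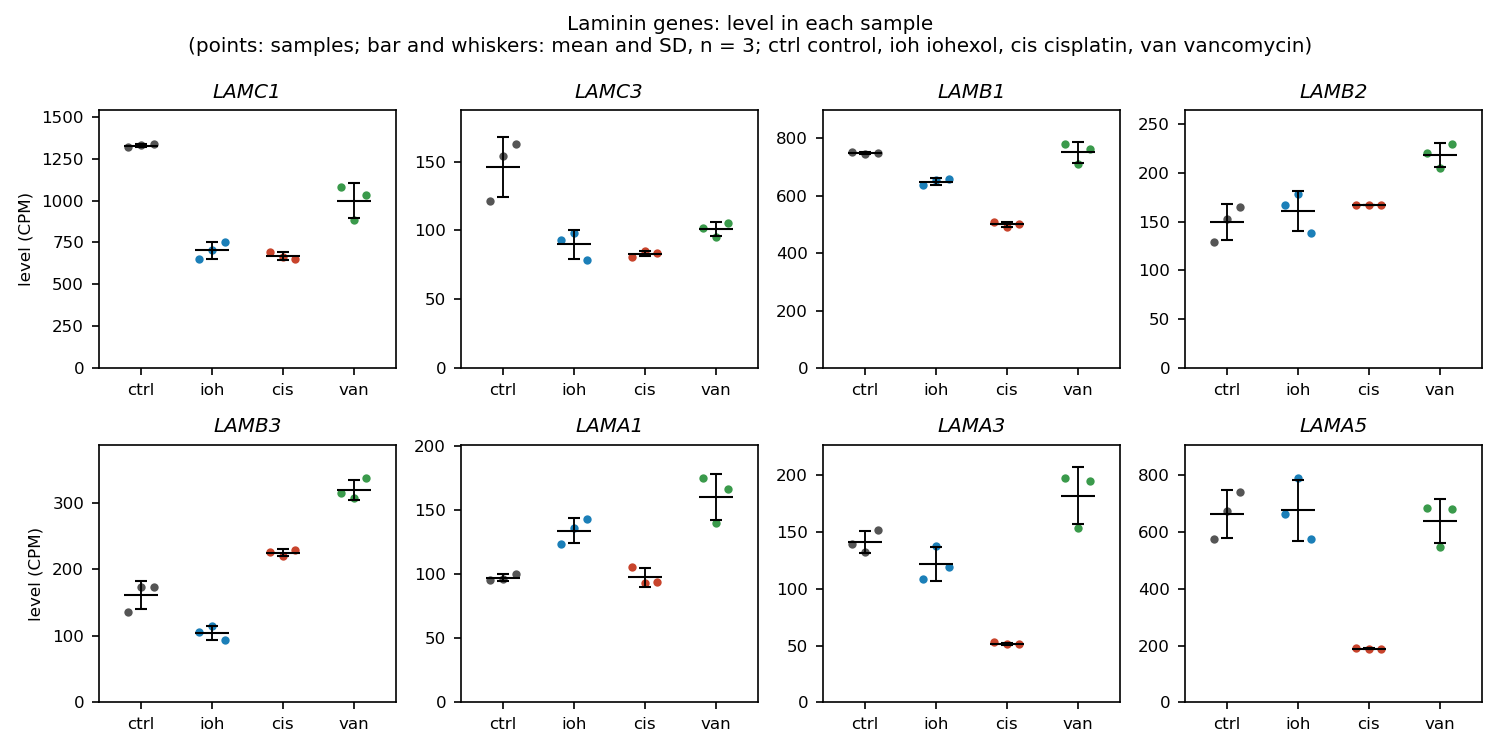
Level in CPM (y axis, from 0) of 8 laminin genes in each of the 12 samples by group (x axis), with the mean and SD of 3 samples. LAMC1 and LAMC3 are lower in all 3 treated groups, LAMB3 is lower with iohexol and higher with cisplatin and vancomycin, and LAMA3 and LAMA5 are lowest with cisplatin.

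Of the integrin genes for laminin receptors, ITGA3, ITGA6 and ITGB4 fell with cisplatin and vancomycin, and ITGA7 rose. ITGA3 encodes α3, the main laminin receptor subunit of tubular cells, and was the most abundant α subunit gene per length, at 124 ± 12.3 CPM per kb in the controls. Its level was 1080.0, 1267 and 1306 CPM in the controls, 1058, 1118 and 899 with iohexol, 286, 289.6 and 279 with cisplatin, and 742, 673 and 732 with vancomycin. The cisplatin samples were the lowest and the vancomycin samples were between them and the controls, with no overlap, whereas the iohexol range overlapped that of the controls. ITGA3 changed by -2.10 ± 0.065 (adjusted p = 7.86e-14) with cisplatin, -0.81 ± 0.089 (adjusted p = 3.89e-08) with vancomycin and -0.23 ± 0.10 (adjusted p = 0.135) with iohexol.

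ITGB4 encodes β4, the hemidesmosome subunit that pairs with α6 only. The level of ITGB4 was 20.4, 24.2 and 28.2 CPM in the controls, 13.9, 14.3 and 10.8 with iohexol, 9.51, 7.82 and 10.6 with cisplatin, and 10.8, 8.91 and 10.2 with vancomycin. Every treated sample lay below every control sample. The changes were -0.88 ± 0.16 (adjusted p = 0.00201) with iohexol, -1.38 ± 0.14 (adjusted p = 1.56e-07) with cisplatin and -1.32 ± 0.14 (adjusted p = 2.57e-08) with vancomycin. ITGB4 shares part of its span with GALK1 on the opposite strand, which held a mean of 380 counts beside 218 for ITGB4. GALK1 was at group means of 24.2 CPM in the controls, 19.1 with iohexol, 18.2 with cisplatin and 36.2 with vancomycin. Whether reads were counted by strand was not given, and the part of GALK1 in the ITGB4 values was not tested.

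ITGA6, the α partner of β4 and also of β1, had a level of 31.8, 31.2 and 31.1 CPM in the controls, 22.8, 25.1 and 28.2 with iohexol, 24.5, 25.6 and 25.1 with cisplatin, and 13.2, 13.9 and 15 with vancomycin. All treated samples lay below the 3 controls, which were close together, and the vancomycin samples were the lowest. The change was -1.2 ± 0.12 (adjusted p = 4.67e-09) with vancomycin, -0.33 ± 0.087 (adjusted p = 0.00391) with cisplatin and -0.29 ± 0.11 (adjusted p = 0.0944) with iohexol, the last not called. With the counts scaled by library size only, the cisplatin call of ITGA6 was lost (-0.11, adjusted p = 0.291).

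ITGA7, the laminin receptor subunit best known from muscle, was called higher with each drug. Its level went from 6.54 ± 1.02 CPM in the controls to 11.3 ± 2.41 with iohexol, 11.3 ± 0.790 with cisplatin and 13.4 ± 2.29 with vancomycin (mean ± SD). No treated sample overlapped the controls, and the changes were 0.81 ± 0.19 (adjusted p = 0.0121), 0.79 ± 0.14 (adjusted p = 0.000155) and 0.99 ± 0.17 (adjusted p = 2.25e-05). The iohexol call was lost without iohexol replicate 1 (adjusted p = 0.0508) or 2 (0.0533). ITGA7 overlaps BLOC1S1, at group means of 4.75 to 7.07 CPM, and the part of its reads in ITGA7 was not tested.

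ITGB1 encodes β1, the common partner of α1 to α11 and αV subunits, and was the most abundant integrin gene per length, at 206 ± 14.3 CPM per kb in the controls. Its level was 1338, 1208 and 1175 CPM in the controls, 779.8, 775 and 921 with iohexol, 732, 721 and 731 with cisplatin, and 1382, 1460.5 and 1331 with vancomycin. The iohexol and cisplatin samples lay below the controls, and the vancomycin range overlapped them. ITGB1 fell with iohexol (-0.57 ± 0.091, adjusted p = 0.000956) and cisplatin (-0.77 ± 0.057, adjusted p = 2.98e-09) and gave 0.12 ± 0.083 (adjusted p = 0.216) with vancomycin. Of its 31-base stretches, 11.5% occur in other annotated transcripts, most often the processed pseudogene AC022149.1, which was at group means of 31.2 CPM in the controls, 18.4 with iohexol, 17.4 with cisplatin and 77.8 with vancomycin.

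The collagen receptor genes ITGA1 and ITGA2 rose with vancomycin. ITGA1 and ITGA2 encode α1 and α2, which bind collagens with β1, and both also bind laminins. The level of ITGA1 was 10.7, 10.5 and 10.0 CPM in the controls, 13.5, 13.3 and 16.3 with iohexol, 4.24, 3.63 and 4.02 with cisplatin, and 42.0, 36.2 and 36.7 with vancomycin. The 4 groups did not overlap each other, with vancomycin the highest, then iohexol, the controls and cisplatin. ITGA1 changed by 1.84 ± 0.12 (adjusted p = 7.52e-12) with vancomycin, 0.48 ± 0.14 (adjusted p = 0.0265) with iohexol and -1.39 ± 0.15 (adjusted p = 3.86e-07) with cisplatin, so that it was raised 3.58-fold by vancomycin. The iohexol call was lost without iohexol replicate 2 and without any 1 of the controls (adjusted p = 0.0528 to 0.106), and with every gene of at least 1 count (0.061). PELO starts inside ITGA1 and shares exons with it, and was at group means of 21.3 CPM in the controls, 23.8 with iohexol, 27.6 with cisplatin and 47.6 with vancomycin. How much of the ITGA1 values came from PELO was not tested.

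ITGA2 had a level of 6.24, 7.53 and 6.58 CPM in the controls, 10.5, 10.5 and 12.6 with iohexol, 5.69, 6.59 and 6.44 with cisplatin, and 39.5, 35.6 and 36.8 with vancomycin. The vancomycin samples were far above all others and the iohexol samples just above the controls, whereas the cisplatin samples overlapped the controls. The change was 2.41 ± 0.13 (adjusted p = 1.57e-13) with vancomycin, a 5.33-fold increase, 0.74 ± 0.15 (adjusted p = 0.00511) with iohexol and -0.12 ± 0.15 (adjusted p = 0.505) with cisplatin. The other collagen receptor subunits, ITGA10 and ITGA11, had 1 to 14 and 0 to 6 counts in a sample and were not tested.

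ITGA1 (chr5:52787896-52959210, plus strand) and ITGA2 (chr5:52989326-53094779, plus strand) are neighbours on chromosome 5 with 30.1 kb between them (GRCh38, as in the count table). Both rose with vancomycin. For them, the 250 bases before a RefSeq transcript start were read from the RefSeq promoter table (GRCh38.p14), and are printed here with those of LAMC1, which was lower with each drug, LAMA5, which fell with cisplatin, and LAMB3, which moved in opposite directions. Of the 38 genes, 26 had entries in that table, with 33 start windows, and 12 had none. The windows are given 5′ to 3′ on the strand of the gene without bases of annotated exons, and capitals mark matches on either strand to GGGCGG (the GC box), TGANTCA (the AP-1 element), GGAATG (a TEAD element), TGACNNNGC (the antioxidant element core) or TATAAA, where N is any base.
ITGA1 chr5:52787666-52787895 (plus): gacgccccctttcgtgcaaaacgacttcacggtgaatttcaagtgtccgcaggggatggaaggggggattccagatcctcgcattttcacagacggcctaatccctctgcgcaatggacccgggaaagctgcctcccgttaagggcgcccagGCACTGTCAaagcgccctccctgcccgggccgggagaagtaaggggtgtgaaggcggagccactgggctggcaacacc
ITGA2 chr5:52989102-52989325 (plus): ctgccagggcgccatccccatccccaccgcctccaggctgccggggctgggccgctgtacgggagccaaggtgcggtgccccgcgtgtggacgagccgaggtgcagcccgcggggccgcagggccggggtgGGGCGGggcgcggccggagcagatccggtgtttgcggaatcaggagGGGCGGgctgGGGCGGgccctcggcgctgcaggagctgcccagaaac
LAMC1 chr1:183023170-183023419 (plus): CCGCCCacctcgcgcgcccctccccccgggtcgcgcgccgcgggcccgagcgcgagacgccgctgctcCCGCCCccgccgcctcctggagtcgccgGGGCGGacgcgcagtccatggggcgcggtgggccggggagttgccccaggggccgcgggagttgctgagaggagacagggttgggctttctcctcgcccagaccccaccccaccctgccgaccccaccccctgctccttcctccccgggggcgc
LAMA5 chr20:62367313-62367562 (minus): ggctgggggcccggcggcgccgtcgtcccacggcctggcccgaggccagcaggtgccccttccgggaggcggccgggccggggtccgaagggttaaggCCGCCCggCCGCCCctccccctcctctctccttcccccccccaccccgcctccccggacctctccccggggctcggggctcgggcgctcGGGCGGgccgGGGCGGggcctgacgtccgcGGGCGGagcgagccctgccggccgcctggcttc
LAMB3 chr1:209651395-209651624 (minus): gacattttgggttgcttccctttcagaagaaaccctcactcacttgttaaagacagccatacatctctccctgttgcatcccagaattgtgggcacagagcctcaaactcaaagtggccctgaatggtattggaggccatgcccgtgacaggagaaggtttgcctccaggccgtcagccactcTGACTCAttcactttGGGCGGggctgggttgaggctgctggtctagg

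The neighbours ITGA1 and ITGA2 differed in these letters. The ITGA2 window held 4 GC boxes, the last of them in bases annotated as exon, and was 76.4% G and C, while the ITGA1 window held no GC box, 1 TGACNNNGC match and 62.0% G and C. LAMA5 had 5 GC boxes and LAMC1 had 3. Over all 35116 windows of the table, 42.6% held a GC box, beside 17 of the members' 33 windows (51.5%). LAMB3 had 3 starts in the table, and the window shown, chosen after the matches were seen, belongs to a start that lies inside the span of the gene in the count table. It held TGACTCA 67 bases before that start, while the other LAMB3 windows, at the outer end of the gene, held no AP-1 element. A LAMA3 window, likewise inside the span of its gene, held 2 AP-1 elements, both in bases annotated as exon. No other window of a member held that element, which makes 2 of 33 windows (6.06%) beside 6.57% of all windows. GGAATG was in 12.1% of the members' windows and 11.9% of all, TGACNNNGC in 9.09% and 10.9%, and TATAAA in 6.06% and 10.7%. A match is only a match of letters, and none of these data measured binding.

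Receptors for fibronectin, vitronectin and other RGD proteins changed in different directions. ITGA5 encodes α5, which with β1 forms the fibronectin receptor, and its level was 165, 197 and 193 CPM in the controls, 144, 151 and 122 with iohexol, 175, 177 and 182 with cisplatin, and 426, 395 and 454 with vancomycin. The vancomycin samples were above and the iohexol samples below the controls, while the cisplatin samples fell within the control range. ITGA5 changed by 1.16 ± 0.092 (adjusted p = 1.63e-10) with vancomycin, -0.39 ± 0.11 (adjusted p = 0.0222) with iohexol and -0.053 ± 0.067 (adjusted p = 0.512) with cisplatin. The iohexol call was lost without control replicate 2 (adjusted p = 0.0971) or 3 (0.0668), and with library size only (0.0538).

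ITGAV encodes αV, the shared partner of β1, β3, β5, β6 and β8. The level of ITGAV was 962, 866 and 844 CPM in the controls, 938, 955 and 1178 with iohexol, 464, 437 and 443 with cisplatin, and 1159, 969 and 902 with vancomycin. Cisplatin samples did not overlap the controls and were 1.99-fold lower, with a log2 fold change of -0.99 ± 0.060 (adjusted p = 2.18e-10). The iohexol (0.22 ± 0.098, adjusted p = 0.139) and vancomycin (0.14 ± 0.095, adjusted p = 0.213) samples overlapped the controls.

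The β partners of αV were all lowered by cisplatin, to different degrees. ITGB8, whose β8 subunit presents latent TGF-β for activation, had a level of 536, 462 and 477 CPM in the controls, 504, 533 and 646 with iohexol, 109, 97.1 and 93.1 with cisplatin, and 109, 86.6 and 85.2 with vancomycin. The cisplatin and vancomycin samples lay far below the controls at a like level, and the iohexol samples overlapped the controls. ITGB8 changed by -2.30 ± 0.075 (adjusted p = 9.83e-14) with cisplatin, -2.43 ± 0.11 (adjusted p = 3.54e-15) with vancomycin and 0.21 ± 0.10 (adjusted p = 0.181) with iohexol.

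ITGB6, the epithelial subunit β6 that also activates latent TGF-β, had a level of 40.1, 41.0 and 35.5 CPM in the controls, 30.5, 33.8 and 34.1 with iohexol, 6.60, 5.05 and 4.90 with cisplatin, and 16.4, 18.4 and 15.9 with vancomycin. The cisplatin samples were the lowest, the vancomycin samples lay between them and the controls, and the iohexol samples lay just below the controls. The change was -2.81 ± 0.13 (adjusted p = 4.87e-12) with cisplatin, a 7.04-fold decrease and the largest fall of any member, -1.24 ± 0.12 (adjusted p = 2.51e-09) with vancomycin and -0.22 ± 0.11 (adjusted p = 0.166) with iohexol, the last not called. Of the 31-base stretches of ITGB6, 21.9% are shared with the overlapping AC092153.1, which was at group means of 5.75 CPM in the controls, 6.24 with iohexol, 1.40 with cisplatin and 1.49 with vancomycin.

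ITGB3 encodes β3 of the vitronectin receptor, and its level was 192, 196 and 192 CPM in the controls, 247, 255 and 246 with iohexol, 79.8, 68.1 and 73.8 with cisplatin, and 225, 187 and 220.3 with vancomycin. The iohexol samples lay above and the cisplatin samples below the controls, while vancomycin samples fell on both sides of them. ITGB3 changed by 0.39 ± 0.078 (adjusted p = 0.00438) with iohexol, -1.39 ± 0.068 (adjusted p = 1.4e-11) with cisplatin and 0.085 ± 0.090 (adjusted p = 0.436) with vancomycin. Over its length, 57.6% of 31-base stretches are shared with AC068234.1, an annotated gene that overlaps it and held 0 counts in every sample. How reads that match both were treated was not given.

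ITGB5 encodes β5, the other vitronectin receptor partner, and its level was 208, 239 and 255 CPM in the controls, 237, 239 and 202 with iohexol, 149, 151 and 152 with cisplatin, and 308, 306 and 323 with vancomycin. The cisplatin samples lay below and the vancomycin samples above the controls, and the iohexol samples overlapped them. ITGB5 changed by -0.64 ± 0.069 (adjusted p = 4.22e-07) with cisplatin, 0.37 ± 0.089 (adjusted p = 0.000944) with vancomycin and -0.032 ± 0.10 (adjusted p = 0.857) with iohexol.

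Among the subunits known from leukocytes, ITGAX rose with vancomycin. ITGAX encodes αX (CD11c), which pairs with β2 on myeloid cells, and its level was 2.10, 3.83 and 3.68 CPM in the controls, 5.25, 5.31 and 4.41 with iohexol, 3.70, 2.46 and 2.78 with cisplatin, and 27.3, 29.2 and 31.8 with vancomycin. The vancomycin samples were far above every other sample, and the change of 3.14 ± 0.17 (adjusted p = 1.68e-13), 8.83-fold, was the largest rise of any member. Of the 31-base stretches of ITGAX, 5.59% occur in other annotated transcripts, most often those of ITGAD and ITGAM, whose part was not tested. Iohexol samples lay slightly above the controls without passing the threshold (0.65 ± 0.24, adjusted p = 0.0765), and cisplatin samples overlapped the controls (-0.12 ± 0.26, adjusted p = 0.717). ITGB2, the gene of its β partner, moved the other way with vancomycin.

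The level of ITGB2 was 6.24, 5.33 and 7.50 CPM in the controls, 6.98, 6.46 and 4.74 with iohexol, 12.7, 12.7 and 14.6 with cisplatin, and 4.13, 2.90 and 3.08 with vancomycin. Cisplatin samples lay above and vancomycin samples below the controls, and iohexol samples overlapped them. ITGB2 changed by 1.07 ± 0.14 (adjusted p = 6.17e-06) with cisplatin, -0.95 ± 0.22 (adjusted p = 0.000684) with vancomycin and -0.050 ± 0.20 (adjusted p = 0.891) with iohexol. Without control replicate 2 its cisplatin change was 0.94, which is no longer above 1. The overlapping antisense gene ITGB2-AS1 was at group means of 1.70 CPM in the controls, 4.8 with iohexol, 8.29 with cisplatin and 0.0884 with vancomycin. Its part in the ITGB2 values was not tested. The summed level of 9 leukocyte markers was 1.25 to 1.64 CPM in the controls, 2.49 to 2.94 in the iohexol, 1.48 to 2.60 in the cisplatin and 3.39 to 5.13 in the vancomycin samples, and CD14 was the 1 marker of the list that could be tested. CD14, a myeloid marker, was called higher with vancomycin (1.8 ± 0.37, adjusted p = 0.000201) and iohexol (1.14 ± 0.34, adjusted p = 0.0356) and not with cisplatin (0.69 ± 0.39, adjusted p = 0.134), from a mean of 0.790 CPM in the controls to 2.84 CPM with vancomycin. PTPRC and CD3E were at or near 0 in every group. The part of leukocyte RNA in the ITGAX and ITGB2 values was not tested.

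Of the other genes of this kind, ITGA4 and ITGAE had higher control means than ITGAX and ITGB2, and the rest were scarce. ITGA4, the α4 subunit that binds VCAM1 and fibronectin, had a level of 11.0, 9.66 and 6.91 CPM in the controls, 5.73, 5.82 and 7.21 with iohexol, 2.97, 3.02 and 4.19 with cisplatin, and 9.14, 8.98 and 11.0 with vancomycin. The cisplatin samples lay below the controls (-1.43 ± 0.20, adjusted p = 9.19e-06), whereas the iohexol (-0.53 ± 0.20, adjusted p = 0.0739) and vancomycin (0.044 ± 0.17, adjusted p = 0.845) ranges overlapped them. Against the controls, ITGAD, which encodes αD, passed the filter in the cisplatin comparison only, through the group in which it was high. Its call is therefore no sign of a change on its own. ITGAD had 6, 2 and 4 counts in the controls, 15, 23 and 11 with cisplatin, 4, 19 and 4 with iohexol and 5, 2 and 8 with vancomycin. Its fitted change with cisplatin was 1.85 ± 0.53 (adjusted p = 0.00592), and 8.99% of its 31-base stretches are shared with AC093520.1 and other genes. ITGAM, the αM subunit, had 9, 18 and 20 counts in the controls and 2, 0 and 4 with cisplatin, and was not called with iohexol or vancomycin. ITGAM, ITGAX and ITGAD are neighbours on chromosome 16, with gaps of 22.2 and 10.3 kb.

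ITGAE, the αE subunit of lymphocytes within epithelia, was at 24.1 ± 1.66 CPM in the controls and gave 0.073 ± 0.13, 0.13 ± 0.097 and -0.24 ± 0.13 with iohexol, cisplatin and vancomycin, none of them called. It overlaps HASPIN, counted nearly as often, at group means of 10.9 to 37.2 CPM. ITGA2B, the platelet subunit αIIb, was at 1.8 ± 0.480 CPM in the controls and 2.93 ± 0.756 with cisplatin (0.71 ± 0.29, adjusted p = 0.04). That call was lost without control replicate 2 (adjusted p = 0.185) or cisplatin replicate 1 (0.0742) or 3 (0.204), and with DESeq2 (0.0663). Of 5 platelet markers only GP1BA could be tested, and it was also called higher with cisplatin (1.06 ± 0.37, adjusted p = 0.0196), while the summed level of the list was 0.816 to 1.71 CPM in the controls and 2.48 to 3.07 CPM with cisplatin. The part of platelet transcripts in the ITGA2B value was not tested. ITGA8, ITGA9, ITGAL and ITGB7 were tested with no drug. ITGA8 had 1 count over the 12 samples, ITGAL at most 5 in a sample, ITGA9 1 to 13, and ITGB7 0 to 5 outside the vancomycin samples, which had 12, 6 and 10. ITGB7 overlaps ZNF740, which held a mean of 896 counts, and the part of ZNF740 in the ITGB7 counts was not tested.

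**Figure D3:**
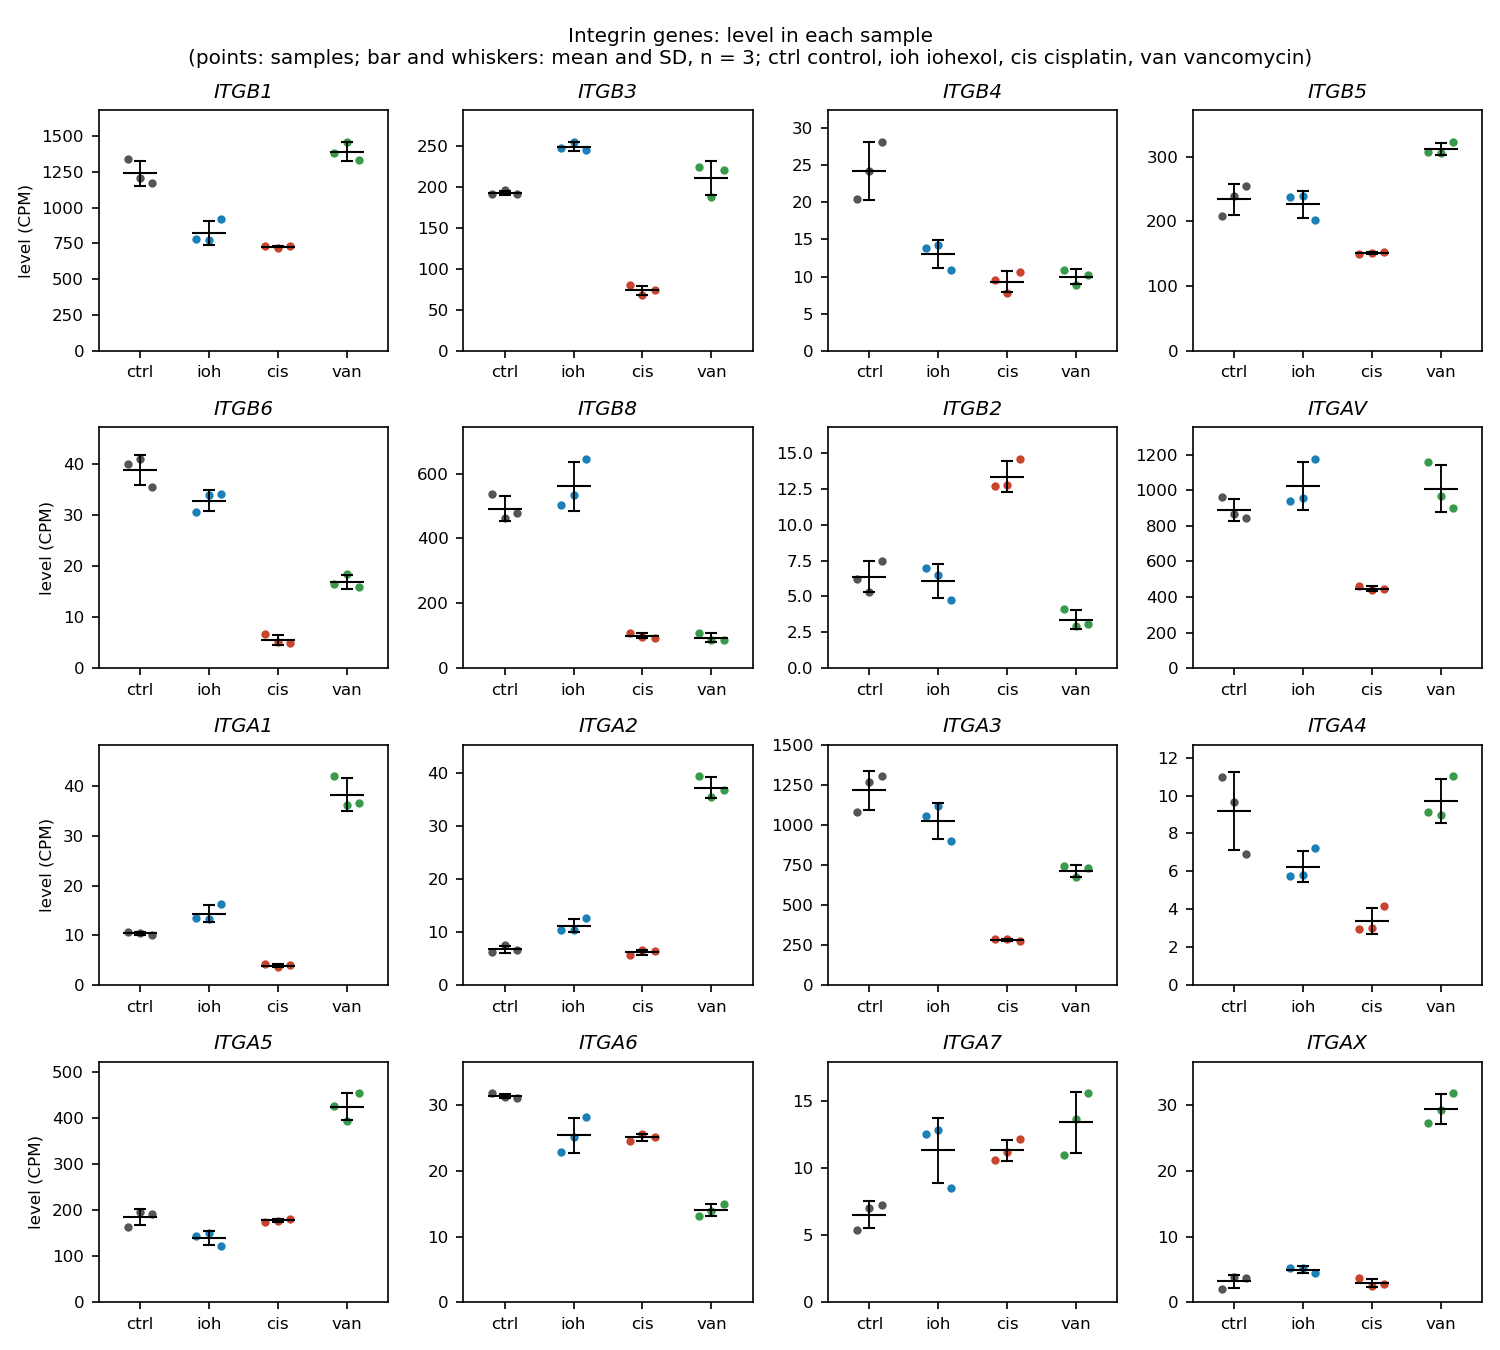
Level in CPM (y axis, from 0) of 16 integrin genes in each of the 12 samples by group (x axis), with the mean and SD of 3 samples. The vancomycin samples stand above all others for ITGA1, ITGA2, ITGA5 and ITGAX, and the cisplatin samples are the lowest for ITGA1, ITGA3, ITGAV, ITGB3, ITGB5 and ITGB6.

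The makeup of each chain class by RNA per length shifted as well. Shares were computed in each sample from CPM per kb of exon and are given as descriptions, with no test. The α and β chains of laminin shifted mostly with cisplatin and vancomycin. The α sum was 62.6 CPM per kb in the controls, 64.7 with iohexol, 23.5 with cisplatin and 67.5 with vancomycin. LAMA5 made up 71.6 to 75.3% of the α sum in the controls and 55.1 to 57.3% with cisplatin, where the share of LAMA1 was 25.3 to 27.6% against 9.16 to 10.7% in the controls. With vancomycin the LAMA5 share was 65.96 to 66.45%, also below the control range. LAMB3 was 20.7 to 24.5% of the β sum in the controls, 16.6 to 18.7% in the iohexol, 35.6 to 36.3% in the cisplatin and 34.4 to 36.1% in the vancomycin samples. The LAMB3 share was thus above the control range with cisplatin and vancomycin and below it with iohexol.

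Within the integrins, ITGA3 made up 42.0 to 48.6% of the α sum in the controls, 34.5 to 43.2% in the iohexol, 23.8 to 25.0% in the cisplatin and 25.9 to 28.1% in the vancomycin samples. ITGA5 made up 8.29 to 9.48% in the controls, 6.07 to 7.57% in the iohexol, 19.1 to 20.1% in the cisplatin and 19.2 to 22.6% in the vancomycin samples. With cisplatin this share grew although the level of ITGA5 was within the control range. ITGAV had mean shares of 40.2% in the controls, 47.7% with iohexol, 45.7% with cisplatin and 45.0% with vancomycin. ITGB8 made up a mean of 9.77% of the β sum in the controls, 13.4% with iohexol, 3.82% with cisplatin and 1.82% with vancomycin.

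**Figure D4:**
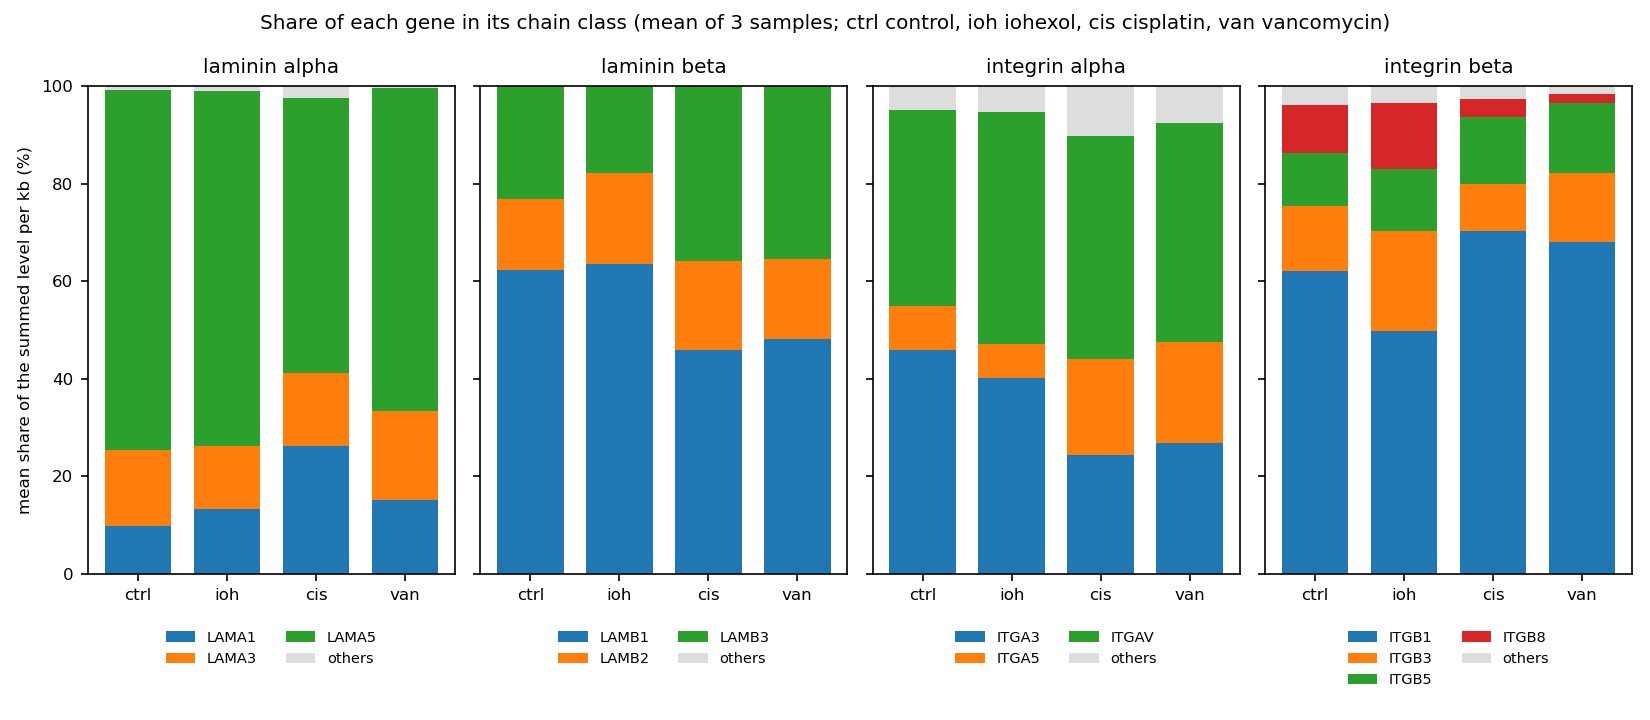
Mean share in percent (y axis) of each gene in the summed level per kb of its class, in the 4 groups (x axis), for laminin α and β chains and integrin α and β subunits, with genes below 5% in every group joined as others. LAMB3 and ITGA5 widen and LAMA5 and ITGA3 narrow with cisplatin and vancomycin, LAMA5 less with vancomycin than with cisplatin.

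The drugs were also compared with each other, in 1 fit of all 12 samples, in which 30 members were tested. The drugs differ in kind and their doses cannot be matched, so these contrasts compare the treatments as given. Vancomycin against cisplatin differed most, with 27 of 30 members called (90.0%, against 64.7% of all genes), 20 higher (34.7% of all genes) and 7 lower (30.0% of all) with vancomycin. The largest of these were ITGAM (3.83 ± 0.55, adjusted p = 4.74e-06), ITGAX (3.30 ± 0.18, adjusted p = 4.51e-12), ITGA1 (3.27 ± 0.13, adjusted p = 6.09e-14) and ITGA2 (2.58 ± 0.13, adjusted p = 8.75e-13), all higher with vancomycin. ITGB2 was lower with vancomycin than with cisplatin (-1.98 ± 0.19, adjusted p = 1.23e-08). ITGAM rests on 2, 0 and 4 counts with cisplatin, so the size of its fitted fold depends on the model. The 7 called lower include ITGAD (-1.62 ± 0.62, adjusted p = 0.0278). ITGAD passed the filter of this fit mainly through the cisplatin samples, in which it was high. The ITGAD call is therefore no sign of a change on its own here either. ITGB8 (-0.090 ± 0.11, adjusted p = 0.478), ITGB4 (0.10 ± 0.16, adjusted p = 0.599) and ITGA7 (0.24 ± 0.16, adjusted p = 0.204) were not called between these 2 drugs. LAMC3 was called higher with vancomycin (0.28), a direction that turned with the counts scaled by library size only (-0.054). With that scaling, which moved the median of all genes to -0.30, the split of called members was 17 higher and 8 lower. The shares of all genes called higher and lower were not computed with it.

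Vancomycin against iohexol gave 22 of 30 members called (73.3%, against 56.6% of all genes), 14 higher (29% of all genes) and 8 lower (27.6% of all). With the counts scaled by library size only, which moved the median of all genes to -0.22, the split was 9 higher and 11 lower. The shares of all genes called higher and lower with that scaling were not computed here either. ITGAX (2.56 ± 0.17, adjusted p = 1.48e-10), ITGA2 (1.73 ± 0.12, adjusted p = 2.01e-10), ITGA5 (1.61 ± 0.091, adjusted p = 1.19e-11) and LAMB3 (1.61 ± 0.095, adjusted p = 2.54e-11) were higher with vancomycin and ITGB8 (-2.58 ± 0.11, adjusted p = 2.41e-13) was lower.

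Cisplatin against iohexol gave 21 of 30 called (70.0%, against 54.0% of all genes), 5 higher (26.0% of all genes) and 16 lower (27.9% of all) with cisplatin. ITGB6 (-2.57 ± 0.13, adjusted p = 2.37e-12), ITGB8 (-2.49 ± 0.11, adjusted p = 4.72e-13), ITGA3 (-1.85 ± 0.089, adjusted p = 1.27e-12), ITGA1 (-1.85 ± 0.14, adjusted p = 6.94e-10), LAMA5 (-1.84 ± 0.11, adjusted p = 4.52e-11) and ITGB3 (-1.75 ± 0.084, adjusted p = 1.23e-12) were lower with cisplatin. LAMB3 (1.10 ± 0.095, adjusted p = 6.51e-09) and ITGB2 (1.14 ± 0.17, adjusted p = 1.49e-05) were higher with cisplatin than with iohexol. LAMC1 and LAMC3 were not called between these drugs, with differences of -0.075 ± 0.079 and -0.11 ± 0.10.

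Genes of other lists were read against the shares of all genes called, which were 29.2% higher and 30.6% lower with cisplatin, 29% higher and 28.8% lower with vancomycin, and 11.2% higher and 9.77% lower with iohexol. Medians over all genes were 0.0074, -0.0084 and 0.012 in that order. The first list holds partners of laminins in the basement membrane. Of 19 listed genes, which include collagen IV chains, nidogens, perlecan and agrin, 15 were tested. With cisplatin 3 were called higher and 11 lower, with a median log2 fold change of -1.11. With vancomycin 9 were higher and 4 lower (median 0.33) and with iohexol 1 was higher and 5 lower (median -0.27). HSPG2, which encodes perlecan, fell with cisplatin (-2.52 ± 0.079, adjusted p = 7.86e-14), as did AGRN for agrin (-1.55 ± 0.068, adjusted p = 3.84e-12), COL4A1 for a collagen IV chain (-1.62 ± 0.073, adjusted p = 5.09e-12) and COL18A1 (-2.07 ± 0.097, adjusted p = 8.24e-12). BCAM, a receptor for the laminin α5 chain, rose with cisplatin (1.18 ± 0.11, adjusted p = 6.6e-08) where LAMA5 fell. With iohexol NID2, a nidogen that links laminin γ1 to collagen IV, rose by 2.04 ± 0.093 (adjusted p = 7.05e-08) and NTN4, a netrin that binds laminin γ chains, changed by -1.14 ± 0.099 (adjusted p = 1e-05). With vancomycin NTN4 (-1.34 ± 0.11, adjusted p = 2.91e-10) and HSPG2 (-1.12 ± 0.12, adjusted p = 4.53e-08) fell.

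Hemidesmosome partners of ITGA6 and ITGB4 were tested for 5 of 7 listed genes. With iohexol 2 of them were called lower, with cisplatin 3 were lower, and with vancomycin 2 were higher and 2 lower. Among all genes 59.8% were called with cisplatin, 57.9% with vancomycin and 21.0% with iohexol, beside which counts out of 5 genes show little. CD151, a tetraspanin that associates with α3 and α6 integrins, rose with vancomycin (1.53 ± 0.11, adjusted p = 3.31e-11). COL17A1, a hemidesmosome collagen counted at a mean of 1.19 CPM in the controls, was called lower with vancomycin (-1.31 ± 0.45, adjusted p = 0.0159). At such low levels COL17A1 may have passed the filter through the controls alone, in which it was high. The COL17A1 call is therefore no sign of a change on its own. The keratin genes KRT5 and KRT14 were at or near 0.

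Of 24 listed ligands of integrins other than laminin, 17 were tested. With cisplatin 2 were called higher (29.2% of all genes) and 14 lower (30.6% of all), with a median of -0.84. With vancomycin 12 were higher (29% of all genes) and 3 lower (28.8% of all), with a median of 0.73, and with iohexol 3 were higher (11.2% of all) and 8 lower (9.77% of all), with a median of -0.34. FN1, which encodes fibronectin, the ligand of α5β1, changed by -1.64 ± 0.041 (adjusted p = 1.15e-14) with cisplatin and 1.10 ± 0.092 (adjusted p = 4.45e-10) with vancomycin, and SPP1, osteopontin, by -1.63 ± 0.060 (adjusted p = 4.29e-13) and 1.59 ± 0.090 (adjusted p = 3.45e-13). THBS1, thrombospondin, fell with each drug, with log2 fold changes of -1.41 ± 0.080 (adjusted p = 3.6e-07) with iohexol, -1.27 ± 0.052 (adjusted p = 1.42e-12) with cisplatin and -4.54 ± 0.11 (adjusted p = 1.6e-19) with vancomycin. TNC, tenascin C, rose with iohexol (1.2 ± 0.093, adjusted p = 3.8e-06) and vancomycin (2.02 ± 0.10, adjusted p = 5.69e-14). With vancomycin CCN2 (-2.42 ± 0.088, adjusted p = 1.69e-16) and CCN1 (-2.19 ± 0.088, adjusted p = 9.25e-16) fell and COL5A1 rose (1.92 ± 0.10, adjusted p = 1.49e-13). With cisplatin COL5A1 fell (-3.27 ± 0.11, adjusted p = 1.36e-13), and with iohexol FBN1 (-1.33 ± 0.096, adjusted p = 2.34e-06) and VCAM1 (-2.10 ± 0.15, adjusted p = 2.38e-06) fell.

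Of 29 listed linkers and kinases that couple integrins to actin, 28 were tested. With cisplatin 1 was called higher (29.2% of all genes) and 17 lower (30.6% of all), with a median of -0.25, which is about as large as the shift of 0.23 in the median of all genes with the counts scaled by library size only. With iohexol 1 was higher (11.2% of all) and 10 lower (9.77% of all), with a median of -0.21, and with vancomycin 10 were higher (29% of all) and 12 lower (28.8% of all), with a median of 0.028. TNS1, a tensin (-1.92 ± 0.085, adjusted p = 3.84e-12), PTK2, the focal adhesion kinase (-1.28 ± 0.065, adjusted p = 2.34e-11), and TLN2, a talin (-1.19 ± 0.11, adjusted p = 3.78e-08), fell with cisplatin, as did PARVB (-1.58 ± 0.12, adjusted p = 2.95e-09), which overlaps the more highly counted SAMM50. With vancomycin TLN2 (-1.39 ± 0.13, adjusted p = 2.58e-09) and FERMT1, a kindlin (-1.33 ± 0.12, adjusted p = 1.36e-09), fell. FERMT3 (2.72 ± 0.35, adjusted p = 5.38e-07) and ILK (1.00 ± 0.38, adjusted p = 0.0285) were called higher with vancomycin at 23.8 and 19.9 mean counts, and both overlap a gene with more reads (TRPT1 and TAF10). PTK2B was called higher with iohexol (1.37 ± 0.28, adjusted p = 0.00511).

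The last list holds 20 proteases and membrane proteins that act on laminins and integrins, of which 19 were tested with vancomycin. Of these 13 were called higher (29% of all genes) and 4 lower (28.8% of all), with a median of 0.58. With cisplatin 2 of 18 were higher (29.2% of all) and 11 lower (30.6% of all), with a median of -0.23, and with iohexol 2 of 19 were higher (11.2% of all) and 5 lower (9.77% of all), with a median of -0.15. MMP14, a membrane protease that cleaves laminin, rose with vancomycin (1.92 ± 0.096, adjusted p = 4.63e-14), as did MMP2 (4.15 ± 0.21, adjusted p = 4.63e-14), PLAUR, the urokinase receptor (2.46 ± 0.10, adjusted p = 2.31e-15), and CD63, a tetraspanin (2.00 ± 0.12, adjusted p = 1.42e-12). CAV1 fell with vancomycin (-1.19 ± 0.090, adjusted p = 7.32e-11). With iohexol PLAUR (-1.16 ± 0.11, adjusted p = 2.18e-05) and CD82 (-1.39 ± 0.25, adjusted p = 0.00224) fell. CD9 was called higher with iohexol (2.19 ± 0.48, adjusted p = 0.00707) from a control mean of 0.289 CPM. At that control level it passed the filter through the iohexol samples, in which it was high. The CD9 call is therefore no sign of a change on its own. With cisplatin PLAU, urokinase (-1.06 ± 0.062, adjusted p = 1.63e-10), ADAM9 (-1.16 ± 0.086, adjusted p = 2.96e-09), CD82 (-1.06 ± 0.16, adjusted p = 2.3e-05) and MMP2 (-1.57 ± 0.47, adjusted p = 0.00804) fell.

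The length of the genes was set beside their change. Across the 29 tested members, the Spearman correlation of the genomic span of a gene with its log2 fold change was 0.163 with iohexol, -0.332 with cisplatin and -0.0281 with vancomycin. The points share the libraries and the controls and members are not replicates, so these values are descriptions with no test.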

How the data were processed

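RNA of 12 samples of HK-2 cells was sequenced after poly(A) selection with an NEBNext Ultra kit. The authors deposited whole-number counts of reads per gene, not normalized, with gene lengths. The submitters' processing notes name CASAVA 1.8, fastp, HISAT2 2.0.5, featureCounts 1.5.0-p3 and DESeq2 1.20.0, and the strand setting and the treatment of reads that match several genes were not given in the sources used here. Start and end were the same as in GENCODE 29 (GRCh38) for 58769 of 58780 shared genes.

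Groups and replicate numbers came from the sample titles. Each drug was compared with the control in edgeR 4.0.16 (quasi-likelihood test, TMM factors, filterByExpr with min.count 10 and min.total.count 15, Benjamini-Hochberg adjustment over all genes tested), and drugs were compared in 1 fit of all samples. The study's own tests used limma on each drug against the control. CPM used the TMM factors of the fit of 12 samples, and CPM per kb the deposited lengths. Standard errors were the absolute log2 fold change divided by the square root of F. Counts of 3 served as the floor. The scripts were tested on simulated data. Values of 1 member and 1 marker gene are not reported here, though counts over the lists include them. The genes, gene lists and tests were chosen with earlier results of these data known. Values in every sample are given for DEGs, for the 5 laminin and 8 integrin genes highest per length in the controls and for genes called in opposite directions by drugs, and of the other lists for up to 4 genes each way with the smallest p among DEGs of a drug.

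No pairing of the samples by replicate number was seen, as the deviations of same-numbered samples correlated at a mean of -0.0209 (-0.184 to 0.104 over 18 pairs). This does not show that they were handled apart, on which the labels say nothing. Replicates differed by more than counting noise (chi-square per degree of freedom 2.28 to 15.5 over pairs). Alternatives were DESeq2 1.42.0, limma-voom (limma 3.58.1), RLE factors, library size only, 2 other filters, other samples in the fit, the replicate number as a block, and leaving out each sample.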

Additional observations from a re-analysis of the deposited data

How the results depend on the processing

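Against the controls 54 gene values were called, and under the alternatives that kept all samples 422 of 431 values kept direction and call, 9 lost the call and 0 turned. Leaving out 1 sample kept 308 of 324 and 16 lost the call. Between drugs, 542 of 557 values of 70 called ones kept direction and call, 14 lost it and 1 turned, LAMC3 between vancomycin and cisplatin (-0.054 with library size only, 0.28 as reported). The cause was not tested. The number called lower with iohexol was 11 rather than 7 in 1 fit of all 4 groups. With cisplatin the number called higher was 10 rather than 5 with library size only, and the number of DEGs that rose was 1 rather than 2 with at least 10 counts in every sample, where ITGAD was no longer tested. The shares of all genes called were not computed under the alternatives or with a sample left out.

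Leaving out 1 sample gave 3 to 6 members called higher and 6 to 9 lower with iohexol (3 without iohexol replicate 2), 4 to 7 higher and 17 to 19 lower with cisplatin, and 9 to 10 higher and 9 to 11 lower with vancomycin. The DEGs then numbered 0 higher and 1 lower with iohexol, 1 to 2 higher (1 without control replicate 2) and 11 to 13 lower with cisplatin, and 4 to 5 higher and 5 to 6 lower with vancomycin. With all samples 10 were lower with cisplatin, and LAMC1 (-0.994) and ITGAV (-0.992) lay just short of the threshold. Between drugs 20 to 22 were called for cisplatin against iohexol, 20 to 22 for vancomycin against iohexol and 24 to 26 for vancomycin against cisplatin (27 with all samples). With the replicate number as a block, members called higher and lower were 4 and 6 with iohexol, 6 and 17 with cisplatin and 10 and 10 with vancomycin. The iohexol calls of ITGA1 (adjusted p = 0.0818) and ITGA5 (0.0568) were lost with this block in edgeR, as were ITGB4 between vancomycin and iohexol (0.0544) and ITGAE between vancomycin and cisplatin (0.0523). No pairing by number was seen, 2 of 12 samples lying closest to their own number. Members that did not reach about 10 counts in at least 3 samples of a comparison were not tested. With a sample left out the filter asked for fewer samples, so the genes tested could differ.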
